A study of Mus musculus with 7 samples.

Results

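The 34 genes described here encode chaperones and folding enzymes of the endoplasmic reticulum (ER), the sensors and transcription factors that control their expression, and components of ER-associated degradation. They were chosen as a list of gene symbols of the ATF6- and XBP1-type response and found by their GENCODE M21 names among the 55487 genes of the count table, and all 34 passed the filter on low counts that left 18449 genes for testing. RNA of the whole cervical spinal cord was sequenced from 4 *Neat1*-KO; hSOD1G93A mice and 3 *Neat1*-WT; hSOD1G93A mice, 1 library per mouse, at 8 weeks of age. Every mouse carried the hSOD1G93A transgene, a human SOD1 gene with a mutation of familial amyotrophic lateral sclerosis (ALS), so no library came from a mouse without it. *Neat1*, a long non-coding RNA that builds nuclear paraspeckles, was knocked out in the whole animal and not in 1 cell type, and the genotypes were obtained by crossing mice with 1 intact *Neat1* allele. The labels do not give the sex of the mice. Libraries are called *Neat1*-KO 1 to 4 and *Neat1*-WT 2 to 4 after their labels. The comparison asks whether expression of the ER folding and degradation genes in this tissue differs with the loss of *Neat1*.

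Proteins that enter the ER are folded with the help of HSPA5 (BiP) and its cochaperones, of the lectins calnexin and calreticulin, which bind sugar chains, and of protein disulphide isomerases, which form and rearrange disulphide bonds. Chains that do not fold are handed to ER-associated degradation, in which they are drawn back into the cytosol through a membrane complex around the ubiquitin ligase SYVN1 (HRD1) and destroyed by the proteasome. When unfolded protein accumulates, ATF6 is cut to release a transcription factor and IRE1 (gene *Ern1*) splices the mRNA of *Xbp1* into the form that encodes an active factor, and both factors raise transcription of chaperone and degradation genes through the ER stress response element (ERSE) of their promoters. ER stress is a known feature of motor neurons in mice with mutant SOD1.

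The data show differences that were small for most of the genes and mostly towards lower levels in *Neat1*-KO mice, among scarce and abundant mRNAs alike. The log2 fold change was near 0 for the sensors *Atf6* and *Ern1*, and -0.30 for the transcription factor gene *Xbp1*. In edgeR's quasi-likelihood test, 0 of the 34 genes were called, which takes an adjusted p under 0.1 together with a log2 fold change beyond 0.58 in either direction. Over the whole table, 0.0325% of the genes tested were called. At an unadjusted p under 0.05, 13 of the 34 were lower in *Neat1*-KO mice, where 2.4% of all genes tested were, and 0 were higher, where 2.24% of all genes were. The list was chosen with earlier results of these data known, and this count was added after seeing the data. The shares given here and below beside those of other genes are therefore descriptions and not a test of the list. The 13 were *Hspa5*, *Hsp90b1*, *Sdf2l1*, *Dnajb11*, *Manf*, *Calr*, *Pdia3*, *Pdia4* and *Pdia6* among the folding genes, and *Xbp1*, *Derl3*, *Sel1l* and *Edem1* among the sensors and degradation genes. Their log2 fold changes lay between -1.05 and -0.16, each given below with its standard error (SE), and their adjusted p-values, over all genes, between 0.369 and 0.992 (edgeR). The count of 13 changed when single libraries were left out. It was 6 without *Neat1*-KO 4, 6 without *Neat1*-WT 3 and 8 without *Neat1*-WT 2. Without *Neat1*-KO 1, 2 or 3 it was 11, 10 and 13, and without *Neat1*-WT 4 it was 12. Of the 13, 5 stayed under an unadjusted p of 0.05 in each of 16 alternative settings, namely *Hspa5*, *Hsp90b1*, *Sdf2l1*, *Pdia3* and *Derl3*. DESeq2 called 1 of the 34 genes (*Sdf2l1*), limma-voom called 0, leaving out *Neat1*-KO 1 gave 1 call (*Sdf2l1*), and testing every gene with a count gave 2 (*Sdf2l1* and *Derl3*).

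Of all 34 genes, 27 had a negative log2 fold change (79.4%), where 48.2% of all genes tested had one. The median log2 fold change over the 34 was -0.13, beside 0.0062 over all genes. For 9 of them, no *Neat1*-KO library reached the lowest *Neat1*-WT library, a pattern held by 2.57% of all genes tested, and for 0 every *Neat1*-KO library was above, where 2.91% of all genes tested were. The 19 chaperones and folding enzymes had a median log2 fold change of -0.18 with 16 lower, of which 9 had an unadjusted p under 0.05. The 12 sensors and degradation genes had a median of -0.098 with 10 lower, of which 4 had such a p. The 3 genes of translocation and modification had a median of 0.061, with 1 lower. The difference between these groups of genes was not tested. The RNA is from whole tissue, so fewer cells of a type that expresses a gene strongly and less RNA of that gene per cell cannot be told apart.

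**Figure D1:**
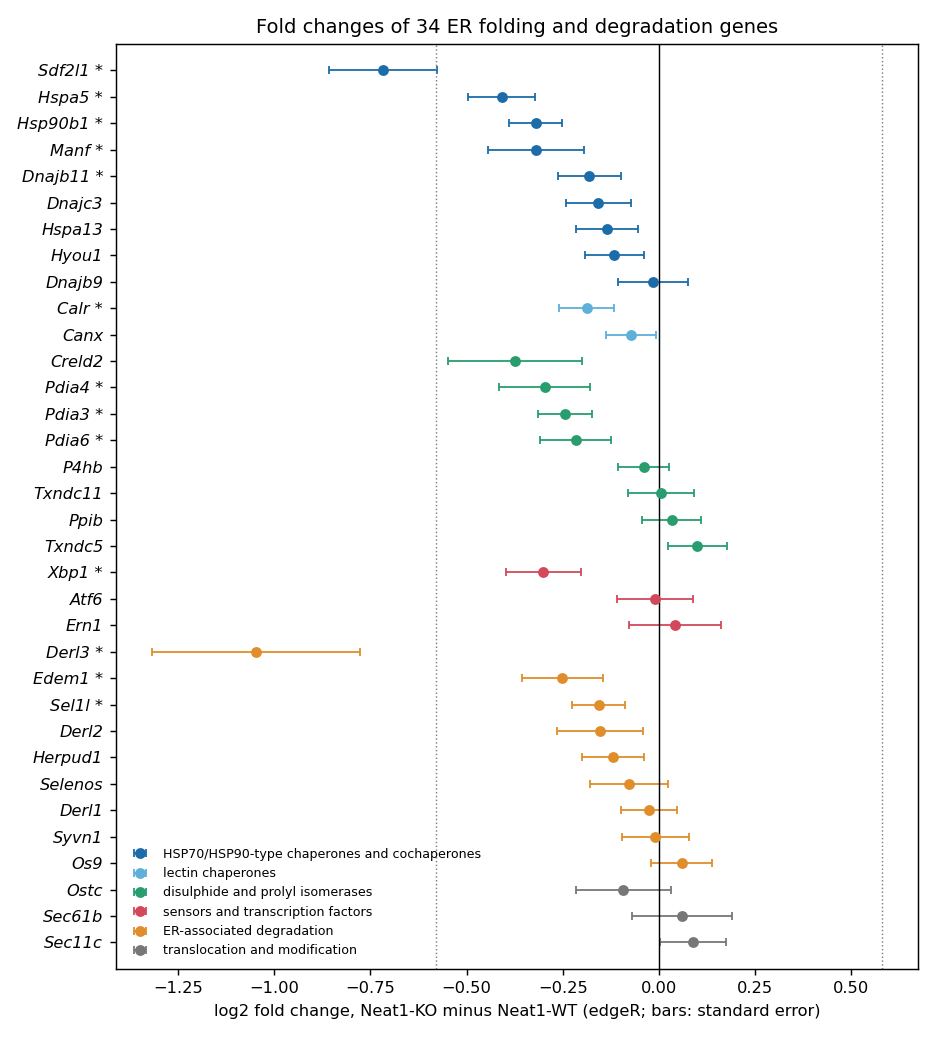
Log2 fold change of each of the 34 genes, *Neat1*-KO minus *Neat1*-WT (horizontal axis), with its standard error from edgeR as a bar and the role of the gene as colour. An asterisk marks an unadjusted p under 0.05, and the dotted lines mark an absolute log2 fold change of 0.58. Points of the HSP70/HSP90-type chaperones all lie left of 0, *Derl3* and *Sdf2l1* lie beyond the left dotted line, and *Atf6*, *Ern1* and *Syvn1* lie within 1 standard error of 0.

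The ERSE reads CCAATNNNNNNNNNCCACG, where N is any base. The factor NF-Y binds its CCAAT end and ATF6 its CCACG end. RefSeq promoter windows on GRCm38.p6, from 250 bases before to 50 after the annotated start, were found for 27 of the 34 genes and searched on both strands. The windows of 9 of the 27 genes hold an ERSE (33.3%), and over all 27025 genes with a window 37 do (0.137%). The list was chosen from the ATF6- and XBP1-type response, which acts through this element. A higher share is therefore built into that choice and is not a result of these data. The elements are shown because they are shared by genes of different roles, and each is printed on the strand that reads from CCAAT to CCACG, with these 5-base ends in capitals.

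*Hspa5*: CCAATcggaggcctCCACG
*Hsp90b1*, farther from the start: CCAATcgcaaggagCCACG
*Hsp90b1*, nearer to the start: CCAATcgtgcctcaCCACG
*Calr*: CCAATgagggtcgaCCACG
*Canx*: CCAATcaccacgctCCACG
*Pdia6*: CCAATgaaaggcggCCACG
*Creld2*: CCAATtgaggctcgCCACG
*Dnajc3*: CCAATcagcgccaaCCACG
*Derl3*: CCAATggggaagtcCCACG
*Syvn1*: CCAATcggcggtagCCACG

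These elements lie at chr2:34772025-34772043 in *Hspa5*, at chr10:86705638-86705656 and chr10:86705533-86705551 in *Hsp90b1*, at chr8:84847075-84847093 in *Calr* and at chr11:50325800-50325818 in *Canx*. Those of the other genes lie at chr12:17266491-17266509 in *Pdia6*, chr15:88819520-88819538 in *Creld2*, chr14:118937827-118937845 in *Dnajc3*, chr10:75893242-75893260 in *Derl3* and chr19:6046532-6046550 in *Syvn1*. The element of *Hspa5* lies before the RefSeq start but within the first exon that GENCODE annotates, and the other elements of the 13 genes lie before the first exon of both. In all 10 elements the 9 bases between the ends are rich in G and C, which make up 66.7% of the spacer in 8 elements and 77.8% in the elements of *Hspa5* and *Syvn1*. This share was not computed for the rest of the windows, so it cannot be said whether the spacers differ from their surroundings.

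For the ERSE genes with an unadjusted p under 0.05, the sequence before the first GENCODE exon is given below on the strand of the gene, with the element in capitals. It shows where the element stands among other CCAAT boxes (ATTGG on this strand when reversed), and *Hspa5* is left out here because its element lies within that exon.

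*Hsp90b1*, chr10:86705510-86705694, minus strand: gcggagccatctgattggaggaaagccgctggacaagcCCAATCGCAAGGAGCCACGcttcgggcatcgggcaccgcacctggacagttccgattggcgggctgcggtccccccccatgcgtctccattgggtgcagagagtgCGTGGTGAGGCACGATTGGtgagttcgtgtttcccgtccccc
*Derl3*, chr10:75893148-75893397, plus strand: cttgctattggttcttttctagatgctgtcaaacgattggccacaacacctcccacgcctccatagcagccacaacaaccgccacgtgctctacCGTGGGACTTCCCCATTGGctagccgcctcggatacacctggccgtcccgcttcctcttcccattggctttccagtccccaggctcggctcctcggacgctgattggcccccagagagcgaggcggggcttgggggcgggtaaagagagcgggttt
*Calr*, chr8:84846935-84847181, minus strand: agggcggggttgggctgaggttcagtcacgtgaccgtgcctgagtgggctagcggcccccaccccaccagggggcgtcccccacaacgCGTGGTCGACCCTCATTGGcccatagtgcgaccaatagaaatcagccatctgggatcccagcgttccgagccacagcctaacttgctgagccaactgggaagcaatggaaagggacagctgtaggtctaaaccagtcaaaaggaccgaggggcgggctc
*Pdia6*, chr12:17266339-17266544, plus strand: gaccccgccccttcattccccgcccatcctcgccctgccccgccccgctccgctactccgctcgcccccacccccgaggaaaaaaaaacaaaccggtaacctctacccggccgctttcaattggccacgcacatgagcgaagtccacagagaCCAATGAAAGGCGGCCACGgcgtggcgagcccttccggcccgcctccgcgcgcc

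All 9 genes with an ERSE had a negative log2 fold change, with a median of -0.22 and a range from -1.05 in *Derl3* to -0.0091 in *Syvn1*. The other 25 genes, those without a window included, had a median of -0.093, with 18 lower. Among genes that are not in the list, 12 with an ERSE were tested, 6 were lower and their median log2 fold change was 0.031. A second element, ERSE-II (ATTGGNCCACG), lies in the windows of *Dnajb11* and *Herpud1*, whose log2 fold changes were -0.18 and -0.12, and in 0.0444% of all genes. The core TGACGTGG of the XBP1-bound unfolded protein response element lies in the windows of *Txndc11* and *Txndc5*, with log2 fold changes of 0.0043 and 0.10, and in 0.714% of all genes. The bases CCACG alone, which are part of ERSE and ERSE-II, lie in the windows of 24 of the 27 genes and in 35.5% of all genes. *Sdf2l1*, *Pdia3*, *Pdia4*, *Xbp1*, *Sel1l* and *Edem1*, which were among the 13 genes, hold neither ERSE nor ERSE-II in this window, and *Manf* has no window. A match of letters is a description of these windows and not a measured binding site.

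**Figure D2:**
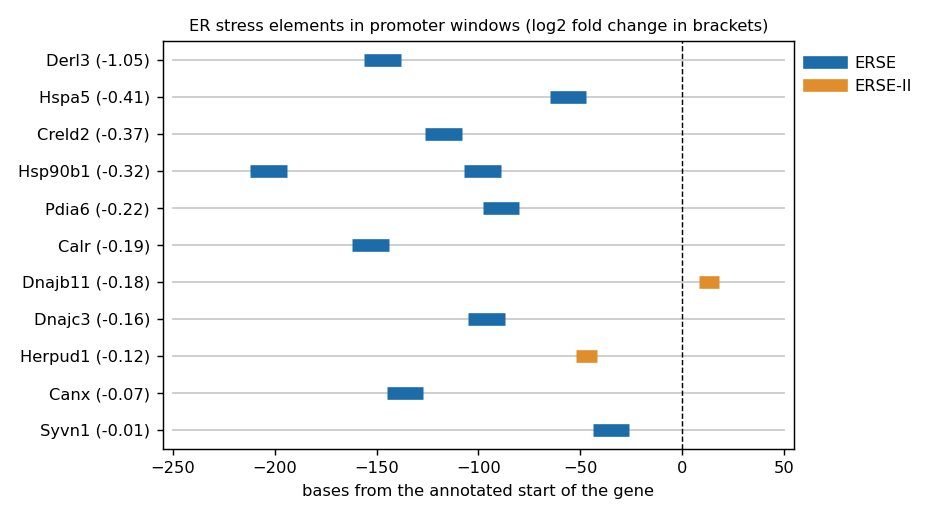
Position of ERSE (blue) and ERSE-II (orange) in the promoter windows of the 11 genes that hold one, in bases from the annotated RefSeq start (dashed line). The log2 fold change, *Neat1*-KO minus *Neat1*-WT, stands in brackets after each gene, and genes are ordered by it from *Derl3* (-1.05) to *Syvn1* (-0.01). All ERSE lie before the start, and the ERSE-II of *Dnajb11* lies after it.

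The most abundant of these mRNAs belong to the folding machinery. In *Neat1*-WT mice, per exon length, *Calr* had 375 ± 23.6 TPM (SD, n = 3), *Canx* 325 ± 21.5, *Hsp90b1* 310 ± 3.59, *Hspa5* 270 ± 21.8 and *Pdia3* 252 ± 3.48 TPM. These 5 genes held 62.8% of the summed TPM of the 19 chaperones and folding enzymes. At the low end, *Derl3* had 4.25 ± 1.40 TPM and *Ern1* 4.79 ± 0.199 TPM (SD, n = 3), which do not differ beyond their spread, and *Calr* was 88.2-fold above *Derl3*. At the top of the order, the means of *Canx* and *Hsp90b1*, and of *Hspa5* and *Pdia3*, differed by less than the sum of their SDs, and those of *Calr* and *Canx* by more. The log2 fold change was negative in 6 of 9 genes with a mean under 30 CPM, 13 of 15 with 30 to 100 CPM and 8 of 10 above, with median log2 fold changes of -0.15, -0.12 and -0.14. Copies of at least 90% identity exist for part of *Calr*, *Derl1*, *Dnajb9* and *Sec61b*, and reads that match a gene and its copy equally well may be missing from their counts.

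*Hspa5* (ENSMUSG00000026864, chromosome 2, 34771970 to 34777547), the HSP70 chaperone of the ER lumen that also holds the sensors inactive, had 260, 241, 283 and 227 CPM in *Neat1*-KO 1 to 4 and 346, 360 and 301 CPM in *Neat1*-WT 2 to 4. The groups did not overlap, and *Neat1*-WT 4 lay closest to the *Neat1*-KO mice. Its log2 fold change was -0.41 (SE 0.088, unadjusted p = 0.000468, adjusted p = 0.485, edgeR), a mean in *Neat1*-KO of 75.3% of that in *Neat1*-WT mice. Its adjusted p was 0.0124 with DESeq2, 0.0885 with the replicate block and 0.000196 without the filter on low counts, where it missed the call by its fold change alone, and over all alternatives it ranged from 0.000196 to 0.99999.

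*Hsp90b1* (ENSMUSG00000020048, chromosome 10, 86690209 to 86705509) encodes GRP94, the HSP90 chaperone of the ER. It had 294, 281, 322 and 278 CPM in *Neat1*-KO 1 to 4 and 371, 370 and 358 CPM in *Neat1*-WT 2 to 4, so that the groups did not overlap and the *Neat1*-WT libraries lay close together. The log2 fold change was -0.32 (SE 0.069, unadjusted p = 0.000498, adjusted p = 0.485, edgeR). With DESeq2 the adjusted p was 0.0127 and without the filter 0.0172, so that *Hsp90b1* also missed the call there by its fold change alone, and the range over all alternatives was 0.0127 to 0.99999. An antisense pseudogene, *1810014B01Rik*, overlaps 10.3% of its exon bases, and reads of the 2 cannot be told apart there if the counting ignored strand. On the same strand, the annotated miRNA gene *Gm25745* lies over 3.3% of its exon bases and the non-coding *Gm15344* over 2.08%.

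*Sdf2l1* (ENSMUSG00000022769, chromosome 16, 17130138 to 17132383), a cofactor of HSPA5 and its DNAJB11 partner, had the largest difference of the list after *Derl3*. Its values were 12.4, 11.1, 12.2 and 8.85 CPM in *Neat1*-KO 1 to 4 and 19.1, 20.3 and 15.3 CPM in *Neat1*-WT 2 to 4, from 232 to 435 counts per library, again without overlap. Its log2 fold change was -0.72 (SE 0.14, adjusted p = 0.369, edgeR), which puts the fitted level in *Neat1*-KO at 60.9% of that in *Neat1*-WT mice. Its adjusted p was 0.00354 with DESeq2, and over all alternatives it ranged from 3.24e-05 to 0.9996. The two-sided exact permutation test used the 35 ways to label 4 of the 7 libraries. For *Hspa5*, *Hsp90b1*, *Sdf2l1*, *Dnajb11*, *Calr* and *Derl3* the exact permutation test gave p = 0.0286, the smallest it allows. For *Pdia3*, *Xbp1* and *Sel1l* the exact permutation test gave p = 0.0571. The exact permutation test gave p = 0.114 for *Pdia4* and *Edem1*. For *Manf* and *Pdia6* the exact permutation test gave p = 0.143, so these 2 and *Pdia4* and *Edem1* were over 0.1 in it.

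*Dnajb11*, which encodes a J-domain cochaperone that brings clients to HSPA5, had 53.2, 53.6, 51.9 and 48.1 CPM in *Neat1*-KO 1 to 4 and 60.2, 61.9 and 53.7 CPM in *Neat1*-WT 2 to 4. The groups were parted by a narrow gap between *Neat1*-KO 2 and *Neat1*-WT 4, and the log2 fold change was -0.18 (SE 0.081, unadjusted p = 0.0455, edgeR). *Manf*, which encodes a secreted ER stress protein that binds HSPA5, had 43.4, 34.5, 39.8 and 34.2 CPM against 48.6, 55.2 and 38.0 CPM. *Neat1*-WT 4 was below *Neat1*-KO 1 and 3, and the log2 fold change was -0.32 (SE 0.13, unadjusted p = 0.0247, edgeR). The unadjusted p was over 0.05 in 7 of the 16 alternatives for *Dnajb11* and in 4 for *Manf*, whose log2 fold change was -0.19 without *Neat1*-WT 3.

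The other 4 genes of this role did not reach an unadjusted p of 0.05, but all had negative log2 fold changes. *Dnajc3*, a cochaperone that also binds the kinase PERK, had -0.16, *Hspa13*, an HSP70-like protein of microsomes, -0.13, *Hyou1*, the large HSP110-type exchange factor of HSPA5, -0.12, and *Dnajb9*, a cochaperone that returns HSPA5 to IRE1, -0.015. Their CPM over all libraries lay between 41.0 and 112. With SE of 0.077 to 0.090, differences of their size could not be told from 0 (unadjusted p between 0.0859 and 0.867, edgeR). *Dnajb9* changed sign when single libraries were left out. Taking the 9 chaperones and cochaperones together, 9 of 9 had a negative value, 5 with an unadjusted p under 0.05.

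The pair of lectin chaperones bind the same monoglucosylated sugar chains, calreticulin in the lumen and calnexin in the membrane. *Calr* had 278, 290, 290 and 253 CPM in *Neat1*-KO 1 to 4 and 312, 305 and 333 CPM in *Neat1*-WT 2 to 4, without overlap (log2 fold change -0.19, SE 0.071, unadjusted p = 0.0200, edgeR). *Canx* had 410 to 447 CPM in *Neat1*-KO and 433 to 471 CPM in *Neat1*-WT mice, which overlap (log2 fold change -0.072, SE 0.065, unadjusted p = 0.289, edgeR). Without *Neat1*-KO 4 or *Neat1*-WT 4, or with a replicate block, the unadjusted p of *Calr* was over 0.05 and at most 0.0812. The difference between *Calr* and *Canx* was not tested.

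**Figure D3:**
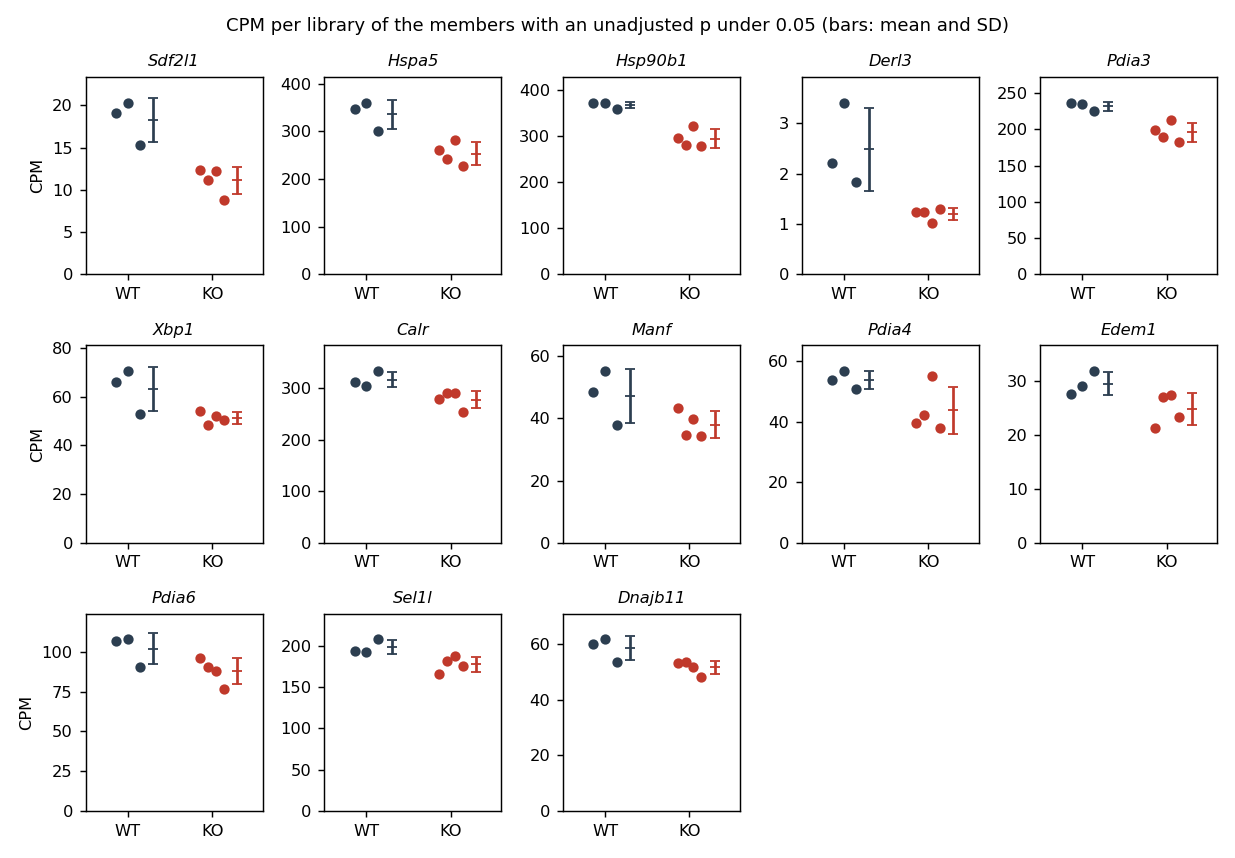
CPM per library (vertical axes, each starting at 0) of the 13 genes with an unadjusted p under 0.05 in edgeR, ordered by that p from *Sdf2l1* to *Dnajb11*. Points are the 3 *Neat1*-WT libraries (dark) and the 4 *Neat1*-KO libraries (red), with mean and SD beside them. In *Sdf2l1*, *Hspa5*, *Hsp90b1*, *Derl3*, *Pdia3*, *Calr*, *Edem1*, *Sel1l* and *Dnajb11* no *Neat1*-KO point reaches the lowest *Neat1*-WT point, and in *Xbp1*, *Manf*, *Pdia4* and *Pdia6* at least 1 does.

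Among the folding enzymes, the disulphide isomerases *Pdia3*, *Pdia4* and *Pdia6* were lower at an unadjusted p under 0.05, and *P4hb* and the other 4 genes were not. *Pdia3* (ENSMUSG00000027248, chromosome 2, 121413775 to 121438687), which encodes ERp57, the isomerase that works with calnexin and calreticulin, had 199, 190, 212 and 183 CPM in *Neat1*-KO 1 to 4 and 237, 235 and 225 CPM in *Neat1*-WT 2 to 4. The groups did not overlap, and its log2 fold change was -0.24 (SE 0.070, unadjusted p = 0.00431, adjusted p = 0.811, edgeR). The two-sided exact permutation p of *Pdia3* was 0.0571, above the smallest possible, because another labelling gave as large a difference.

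*Pdia4* (ERp72) had 39.6, 42.3, 55.3 and 38.1 CPM in *Neat1*-KO 1 to 4 and 53.9, 56.8 and 50.8 CPM in *Neat1*-WT 2 to 4. Here *Neat1*-KO 3 lay among the *Neat1*-WT libraries, and the log2 fold change was -0.30 (SE 0.12, unadjusted p = 0.0263, edgeR). *Pdia6* (P5) had 96.0, 90.3, 88.0 and 76.4 CPM against 107, 108 and 90.6 CPM, with *Neat1*-WT 4 below *Neat1*-KO 1 (log2 fold change -0.22, SE 0.093, unadjusted p = 0.0367, edgeR). Each of these genes lost an unadjusted p under 0.05 in 4 of the 16 alternatives, all of them with 1 library left out.

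The founding disulphide isomerase, *P4hb*, had 145 to 156 CPM in *Neat1*-KO and 147 to 159 CPM in *Neat1*-WT mice (log2 fold change -0.039, SE 0.066). *Txndc11*, a membrane protein with thioredoxin domains, had a log2 fold change of 0.0043 (SE 0.086) at 20.3 to 21.8 CPM. *Txndc5* (ERp46) had the highest value of all 34 genes, 0.10 (SE 0.077, unadjusted p = 0.218, edgeR), with 68.1 to 79.7 CPM in *Neat1*-KO and 70.1 to 71.1 CPM in *Neat1*-WT mice. *Creld2*, an ER stress gene with disulphide isomerase activity, had a log2 fold change of -0.37 but a wide spread (SE 0.17, unadjusted p = 0.0518, edgeR), with 9.96 to 14.7 against 11.5 to 19.2 CPM. Over the alternatives the log2 fold change of *Creld2* ranged from -0.54 to -0.17, the latter without *Neat1*-WT 3. *Ppib*, the prolyl isomerase cyclophilin B, had a log2 fold change of 0.033 (SE 0.078), and 25% of its exon bases are overlapped by *Snx22* on the opposite strand.

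Summed over the 19 chaperones and folding enzymes, the level per exon length was 2024, 2143, 2295 and 2032 TPM in *Neat1*-KO 1 to 4 and 2398, 2486 and 2441 TPM in *Neat1*-WT 2 to 4. *Neat1*-KO 3 was the nearest to the *Neat1*-WT mice, and no *Neat1*-KO library reached them. The means were 2124 ± 127 TPM (SD, n = 4) and 2442 ± 43.7 TPM (SD, n = 3), so that the *Neat1*-KO mice had 87.0% of the *Neat1*-WT level. Of the difference of -318 TPM, *Hspa5* made up 21.02%, *Hsp90b1* 19.4%, *Calr* 14.6% and *Pdia3* 12.4%, which together is 67.5%. *Neat1*-KO 4 was the lowest *Neat1*-KO library in 11 of the 19 genes and the highest in 0, and *Neat1*-WT 4 was the lowest *Neat1*-WT library in 11. *Neat1*-KO 3 was the highest *Neat1*-KO library in 9.

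For the sensors and degradation genes, the summed level was 562, 636, 612 and 624 TPM in *Neat1*-KO 1 to 4 and 616, 659 and 651 TPM in *Neat1*-WT 2 to 4, and the groups overlap. The means were 608 ± 32.5 TPM (SD, n = 4) and 642 ± 22.8 TPM (SD, n = 3). The 3 genes of translocation and modification had 138 ± 10.7 TPM (SD, n = 4) and 135 ± 4.61 TPM (SD, n = 3). The sums are descriptions of chosen genes, for which no test was made.

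**Figure D4:**
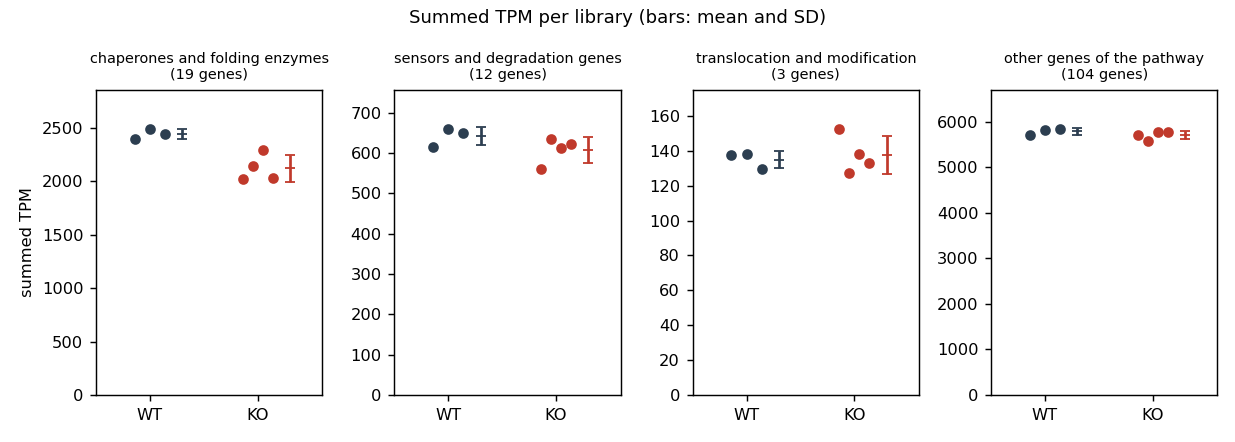
Summed TPM per library (vertical axes, each starting at 0) of the chaperones and folding enzymes, the sensors and degradation genes, the genes of translocation and modification, and 104 other genes of the same pathway that are not in the list. Points are libraries of *Neat1*-WT (dark) and *Neat1*-KO (red) mice, with mean and SD beside them. The *Neat1*-KO libraries lie at 2024 to 2295 TPM and the *Neat1*-WT libraries at 2398 to 2486 TPM in the first group, and the genotypes overlap in the others.

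The sensors and transcription factors themselves showed little difference apart from *Xbp1*. *Atf6* had 49.7, 53.7, 57.7 and 51.3 CPM in *Neat1*-KO 1 to 4 and 51.1, 47.3 and 62.0 CPM in *Neat1*-WT 2 to 4. The *Neat1*-WT libraries spanned the *Neat1*-KO ones, and the log2 fold change was -0.010 (SE 0.10, unadjusted p = 0.919, edgeR), whose sign turned under several alternatives. *Ern1* had 10.1, 12.5, 12.5 and 12.2 CPM against 11.8, 11.0 and 11.7 CPM, with *Neat1*-KO 1 apart from the other *Neat1*-KO libraries (log2 fold change 0.042, SE 0.12, unadjusted p = 0.729, edgeR).

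*Xbp1* (ENSMUSG00000020484, chromosome 11, 5520659 to 5525893) had 54.0, 48.5, 52.2 and 50.6 CPM in *Neat1*-KO 1 to 4 and 65.9, 70.5 and 53.1 CPM in *Neat1*-WT 2 to 4. *Neat1*-WT 4 lay within the *Neat1*-KO range, just below *Neat1*-KO 1, and the other *Neat1*-WT libraries were well above it. The log2 fold change was -0.30 (SE 0.098, unadjusted p = 0.00902, adjusted p = 0.940, edgeR), and the two-sided exact permutation p was 0.0571. Without *Neat1*-WT 3 the unadjusted p was 0.0653. Counts per gene hold spliced and unspliced *Xbp1* mRNA together, so activity of IRE1 was not measured here.

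Of the 9 degradation genes, 8 had a negative log2 fold change and 3 an unadjusted p under 0.05. *Derl3* (ENSMUSG00000009092, chromosome 10, 75893413 to 75895941), a derlin that takes part in moving proteins out of the ER, had 1.23, 1.25, 1.02 and 1.30 CPM in *Neat1*-KO 1 to 4 and 2.22, 3.41 and 1.84 CPM in *Neat1*-WT 2 to 4. These rest on 24, 31, 22 and 34 counts against 49, 73 and 36 counts, so the gene is near the low end of what was tested, and the *Neat1*-WT libraries spread widely. Its log2 fold change was -1.05 (SE 0.27, unadjusted p = 0.00197, adjusted p = 0.704, edgeR), with p = 0.0286 by the two-sided exact permutation test. Without the filter on low counts its adjusted p was 0.0685 and it passed the call, the adjusted p over the alternatives ranged from 0.0685 to 0.99999, and DESeq2 gave none.

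Its relatives had higher levels and smaller differences. *Derl1* had 95.6 ± 5.12 TPM (SD, n = 4) in *Neat1*-KO and 97.5 ± 8.13 TPM (SD, n = 3) in *Neat1*-WT mice, with a log2 fold change of -0.026 (SE 0.072). *Derl2* had 10.7 ± 0.893 and 11.95 ± 1.40 TPM, with a log2 fold change of -0.15 (SE 0.11, unadjusted p = 0.191, edgeR). The differences between the derlins were not tested.

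*Syvn1* encodes the ubiquitin ligase HRD1, and *Sel1l* its membrane partner. *Syvn1* had 40.6 to 47.5 CPM in *Neat1*-KO and 39.6 to 44.9 CPM in *Neat1*-WT mice (log2 fold change -0.0091, SE 0.088, unadjusted p = 0.919, edgeR). Its promoter holds an ERSE, and the gene lies 201098 bases from *Neat1* on chromosome 19. *Sel1l* had 166, 182, 187 and 176 CPM in *Neat1*-KO 1 to 4 and 194, 193 and 208 CPM in *Neat1*-WT 2 to 4, without overlap (log2 fold change -0.16, SE 0.069, unadjusted p = 0.0414, edgeR). Its unadjusted p was over 0.05 in 8 of the 16 alternatives and at most 0.184.

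*Edem1*, which encodes a protein that trims mannose from glycoproteins bound for degradation, had 21.3, 26.9, 27.4 and 23.4 CPM in *Neat1*-KO 1 to 4 and 27.5, 29.1 and 31.8 CPM in *Neat1*-WT 2 to 4. *Neat1*-WT 2 was just above the highest *Neat1*-KO library (log2 fold change -0.25, SE 0.11, unadjusted p = 0.0340, edgeR), and the unadjusted p was over 0.05 in 6 of the 16 alternatives. The remaining degradation genes had unadjusted p-values between 0.166 and 0.469 (edgeR). *Herpud1*, a scaffold of the HRD1 complex, had a log2 fold change of -0.12 (SE 0.081), *Selenos*, a membrane selenoprotein that recruits the VCP ATPase, -0.078 (SE 0.10), and *Os9*, a lectin that recognises trimmed sugar chains, 0.059 (SE 0.079).

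The 3 genes that act as proteins enter the ER had values on both sides of 0. *Sec61b*, a subunit of the translocation channel, had a log2 fold change of 0.061 (SE 0.13), *Ostc*, a subunit of the oligosaccharyltransferase, -0.093 (SE 0.12), and *Sec11c*, a subunit of the signal peptidase, 0.089 (SE 0.085). Their unadjusted p-values lay between 0.318 and 0.647 (edgeR), and the genotypes overlap in each. *Sec61b* has 3 copies of at least 90% identity (*Gm10320*, *Gm33666* and *Gm5870*), so its counts of 226 to 337 are uncertain.

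The rest of the pathway was examined through 105 further genes, of which 104 were tested, all but *Ern2*, which did not pass the filter on low counts. They cover the other sensors, chaperones, glycan-trimming and degradation enzymes, and the machinery of translocation and N-glycosylation. Of the 104, 0 were called, where 0.0325% of all genes tested were. A negative log2 fold change was found in 63 (60.6%), where 48.2% of all genes tested had one. The other 41 were positive, and the median was -0.020. At an unadjusted p under 0.05 there were 3 lower and 1 higher, where 2.4% and 2.24% of all genes tested were. Among the 34 chaperones and folding enzymes of the 104, 16 were lower (47.1%), with a median of 0.0085. The summed level of the 104 genes was 5714 ± 91.1 TPM (SD, n = 4) in *Neat1*-KO and 5792 ± 71.1 TPM (SD, n = 3) in *Neat1*-WT mice, or 98.6%.

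The 3 lowest p-values among those lower belonged to *Fam8a1*, a partner of HRD1, with a log2 fold change of -0.21 (unadjusted p = 0.0299), *Stt3b*, a catalytic subunit of the oligosaccharyltransferase, with -0.17 (unadjusted p = 0.0378), and *Creld1*, with -0.20 (unadjusted p = 0.0405, all edgeR). Among those higher they belonged to *Srprb*, a subunit of the receptor for the signal recognition particle, with 0.19 (unadjusted p = 0.0494), *Ube2j2*, a ubiquitin-conjugating enzyme of the ER membrane, with 0.15 (unadjusted p = 0.0903), and *Ppic*, cyclophilin C, with 0.37 (unadjusted p = 0.105, all edgeR). Every one of them had an adjusted p of 0.992.

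Total counts per library were 19661878 to 26031517, and *Neat1* itself had a log2 fold change of -4.25 (SE 0.15, adjusted p = 1.52e-08, edgeR), with every library on the side of its label. Markers of neurons, astrocytes, oligodendrocytes and microglia were present in every library. The 5 motor neuron markers all had negative log2 fold changes, 2 of them with an unadjusted p under 0.05 (*Slc18a3* at -0.30 and *Slc5a7* at -0.40, edgeR), and *Chat* was at -0.092. Their summed level was 192 to 255 CPM in *Neat1*-KO and 260 to 316 CPM in *Neat1*-WT mice, which do not overlap. The sum was mostly *Slc5a7* and *Slc18a3*, and in each single marker the genotypes overlap. The 5 oligodendrocyte markers were also all negative, 1 of them with an unadjusted p under 0.05 and no overlap of the genotypes (*Mobp* at -0.17, edgeR), with sums of 31857 to 34818 and 33408 to 40947 CPM that overlap. Of 5 plasma cell markers, which mark secretory cells rich in ER chaperones, 3 were tested. Of these, *Ighm* was lower at an unadjusted p under 0.05 (log2 fold change -0.29, edgeR). The log2 fold changes of *Jchain* (0.23) and *Sdc1* (0.16) were positive, with unadjusted p over 0.05 (edgeR). The sum of the list, 42.2 to 56.2 against 57.1 to 61.9 CPM, was nearly all *Ighm*. *Mzb1* was at most 0.136 CPM and *Tnfrsf17* at most 0.360 CPM. Summed peripheral nerve markers varied among libraries within each genotype (160 to 465 and 152 to 493 CPM), as did meningeal ones (70.2 to 184 and 63.2 to 188 CPM). Of the other marker lists, *Ly6c1* of the endothelium at -0.27 and *Lum* of meningeal fibroblasts at 0.66 also had an unadjusted p under 0.05 (edgeR). The other endothelial markers lay on both sides of 0, from -0.078 (*Flt1*) to 0.12 (*Kdr*). All 5 meningeal markers had positive log2 fold changes. The part of these cell types in the lower chaperone levels was not tested.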

How the data were processed

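Poly(A) RNA of the cervical spinal cord of 7 mice was made into directional libraries by the authors and sequenced. Per the submitters' processing notes, FastQC 0.11.7, Trimmomatic 0.38, HISAT2 2.1.0, SAMtools 1.9 and featureCounts 1.6.3 were used with mm10, and the annotation release and strand setting are not given in the sources used here. The authors deposited raw counts per gene, not normalised, with totals of 19661878 to 26031517. Genotype and replicate came from the sample titles. Names and positions of genes are those of GENCODE M21.

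In edgeR 4.0.16 (R 4.3.3), genes passing filterByExpr were scaled by TMM (factors 0.991 to 1.008) and the genotypes compared by the quasi-likelihood F-test with Benjamini-Hochberg adjustment over 18449 genes. The coefficient of biological variation was 0.128. Calls took an adjusted p under 0.1 together with a log2 fold change beyond 0.58 in either direction. Standard errors are the absolute log2 fold change over the square root of F. CPM are counts relative to library size after TMM, and TPM were computed from counts and the union length of exons. Single genes were also compared by a two-sided exact permutation test of mean log2 CPM (prior count 0.5). Promoter windows came from RefSeq (GRCm38.p6), where 27 of 34 genes matched, and copies were searched with BLAST 2.17.0.

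Genes were named with per-library values where the unadjusted p was under 0.05 or the gene is a sensor or transcription factor, with, of the other pathway genes, those of the 3 smallest p-values in each direction. The members and lists were chosen with earlier results of these data known. The alternatives tried were upper-quartile or median-of-ratios scaling, no filter, a filter of 0.5 CPM in 1 library, DESeq2 1.42.0, limma-voom 3.58.1, robust dispersion, Xist as a covariate, a replicate block, leaving out each library, an adjusted p under 0.05 and no minimum of fold change. The count at an unadjusted p under 0.05 was added after seeing the data. The fits were tested on simulated data. Figures were drawn with matplotlib 3.10.9.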

Additional observations from a re-analysis of the deposited data

Results flagged for a closer look

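In the *Neat1*-KO libraries, 39 values were looked at for 1 library far from the other 3, and 2 had one, where chance gives about 1 in 20, or 1.95. In *Ern1* the gap of *Neat1*-KO 1 (10.1 CPM) to the next library made up 0.901 of the range, with the other libraries at 12.2 to 12.5 CPM and the *Neat1*-WT libraries at 11.0 to 11.8 CPM. In *Syvn1* the gap of *Neat1*-KO 2 (47.5 CPM) made up 0.886 of the range, with the others at 40.6 to 41.3 CPM. Groups of 3 were not looked at.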

How the results depend on the processing

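The direction of the 34 genes moved little with the processing. Over all alternatives 24 to 28 were lower, and the medians of all 34 genes and of both main groups stayed negative, from -0.26 (Xist as a covariate) to -0.15 for the chaperones and folding enzymes. The number called was 0 in most settings, 2 without the filter on low counts, and 1 with DESeq2 or with the replicate block (*Sdf2l1*, adjusted p = 0.0236 in edgeR, with a range over the alternatives from 3.24e-05 to 0.9996). With 1 library left out it was 0 to 1 (1 without *Neat1*-KO 1), and the count lower at an unadjusted p under 0.05 was 6 to 13. No other genes of the pathway were called in any setting. The cause of these changes was not tested. Same-numbered libraries of the genotypes did not deviate together (correlations of -0.36, -0.28 and -0.069 over 12841 genes). Between differently numbered libraries the correlations ranged from -0.031 to 0.29. The highest were those of *Neat1*-WT 4 with *Neat1*-KO 2 (0.29) and with *Neat1*-KO 3 (0.26). The labels do not say whether the numbers pair the mice. The replicate block, in which *Neat1*-KO 1 has no *Neat1*-WT partner, left 10 genes lower at an unadjusted p under 0.05. Of 544 fold changes under alternatives, 28 turned their sign, all in 7 genes near 0. With *Txndc11* it was -0.0013 with median-of-ratios scaling, -0.0018 with DESeq2, -0.020 with the replicate block and -0.015 with Xist. *Atf6* was 0.027 and 0.029, and *Sec61b* -0.032 and -0.061, with the replicate block and with Xist, and *Syvn1* was 0.0051 with the block. With 1 library left out, values ranged from -0.022 to 0.015 for *Txndc11*, -0.092 to 0.11 for *Atf6*, -0.066 to 0.023 for *Syvn1*, -0.038 to 0.12 for *Sec61b*, -0.021 to 0.080 for *Ppib*, -0.080 to 0.022 for *Dnajb9* and -0.054 to 0.027 for *Derl1*. Depth limits *Derl3* most, with 22 counts in its lowest library, while 32 of the genes had at least 200 in every library.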
